A study of Mus musculus with 15 samples.

Results

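Genes that move or bind bile acids in the ileum were followed across 15 RNA sequencing libraries of mouse ileal organoids. The 7 genes were chosen by name: Slc10a2, Fabp6, Slc51a, Slc51b, Abcc2, Abcc3 and Abcb11. All 7 members were among the 23420 gene symbols of each count table, and all 7 passed the filter on low counts that left 13159 tested genes. The organoids are epithelial cultures grown in Matrigel from C57BL/6 ileal crypts, used at passage 2, split on day 10 and treated on day 14. Their lumen was opened by pipetting, and they then spent 24 h in DMEM with 0.2% albumin plus vehicle or 1 of 4 bile acid pools. H10 and H90 model the human pool and M10 and M90 the mouse pool, and the number is the percentage (10 or 90) of bile acids that were 12α-hydroxylated, that is, carried a hydroxyl group on carbon 12 of the sterol ring. Each of the 5 groups has 3 libraries, named a, b and c. The labels give neither the single bile acids nor their dose, so pools are compared as mixtures. They also do not tie the libraries to animals or cultures, so p-values measure the spread between these libraries, which may be technical.

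Bile acids that reach the ileum are taken up from the lumen by the apical sodium-dependent carrier Slc10a2 (ASBT), carried through the enterocyte by the binding protein Fabp6 (I-BABP), and passed to the portal blood by the basolateral carrier formed of Slc51a and Slc51b (OSTα and OSTβ). Abcc2 (MRP2) exports conjugates across the apical membrane and Abcc3 (MRP3) across the basolateral one. Abcb11 (BSEP) is the bile salt export pump of the hepatocyte. The nuclear receptor FXR, which binds bile acids, is known to activate Fabp6, Slc51a, Slc51b and Abcb11, often through an inverted repeat of AGGTCA with a spacer of 1 base (IR-1).

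Total counts per library ran from 11245807 to 28989526. Of the markers checked against the labelled tissue, the ileal genes Fabp6, Slc10a2 and Fgf15 had counts in every library, and so had Gata4, a factor of the proximal small intestine, at 74.4 to 108 CPM (counts scaled to a library total of 1000000). The libraries fall into sets by Mup20, a liver transcript: 7 libraries above 10 CPM (set 1: vehicle, H10 and H90 a) and 8 below (set 2: H90 b and c, M10 and M90). The labels name no batch, and the set cannot be told apart from the pools in comparisons of M10 or M90 with vehicle or H10 except through H90. Rn45s, the ribosomal RNA precursor, took 14142 CPM in H90 a and 1739 to 3215 CPM in the other libraries.

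The promoters below are shown because FXR is known to activate these genes, and these are stretches that were searched for its motif. They are RefSeq sequences on GRCm38.p6, read 5′ to 3′ on the gene's strand and ending at the base before the start of transcription. Capitals mark the windows with the fewest mismatches to IR-1 (AGGTCANTGACCT), where these are 3 or fewer of 12 fixed letters. The motif reads the same on either strand. Of the 7 members, 6 had an entry among 32851 promoters.
Fabp6, chr11:43601563-43601812, minus strand: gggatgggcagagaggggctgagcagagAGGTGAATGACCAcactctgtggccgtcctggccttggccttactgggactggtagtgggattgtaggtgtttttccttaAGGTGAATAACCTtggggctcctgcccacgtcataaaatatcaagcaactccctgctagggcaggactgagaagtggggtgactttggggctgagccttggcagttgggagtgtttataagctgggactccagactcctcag
Slc51a, chr16:32487880-32488129, minus strand: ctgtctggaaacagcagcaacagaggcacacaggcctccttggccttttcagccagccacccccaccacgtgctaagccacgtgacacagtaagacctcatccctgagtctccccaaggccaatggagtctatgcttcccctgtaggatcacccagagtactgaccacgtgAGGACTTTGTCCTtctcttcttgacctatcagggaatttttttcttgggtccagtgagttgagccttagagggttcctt
Abcb11, chr2:69342617-69342866, minus strand: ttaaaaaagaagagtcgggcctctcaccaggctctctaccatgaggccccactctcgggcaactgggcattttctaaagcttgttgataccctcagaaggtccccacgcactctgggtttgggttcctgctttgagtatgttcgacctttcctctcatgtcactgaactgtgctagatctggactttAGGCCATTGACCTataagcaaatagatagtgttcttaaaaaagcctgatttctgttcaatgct

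Over the 250 bases before each RefSeq start, Fabp6 held 2 windows with 2 mismatches to IR-1, AGGTGAATGACCA at -222 to -210 and AGGTGAATAACCT at -142 to -130, and 0.959% of all promoters had a window as close or closer. Slc51a held AGGACTTTGTCCT at -79 to -67 and Slc51b held GGGTCATTCACCC at -187 to -175, each with 3 mismatches, as close as 9.63% of promoters. The Slc51b window spans the more upstream start that GENCODE gives that gene, so part of it lies inside that transcript. Abcb11 held AGGCCATTGACCT at -63 to -51, with 1 mismatch, which 0.0791% of promoters matched or bettered. The nearest IR-1 window of Slc10a2 and of Abcc2 had 4 mismatches, which 50.0% of promoters reached. A match describes letters in a window and is not a binding site, and binding was not measured.

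The uptake carrier Slc10a2 (chromosome 8, 5083219 to 5105351, minus strand, 6 exons, GRCm38) did not share a direction across the pools. Vehicle libraries a, b and c gave 56.2, 71.2 and 57.0 CPM, where CPM are scaled by the TMM method. H10 gave 67.5, 75.6 and 66.8 CPM, and H90 gave 43.0, 49.8 and 35.5 CPM. M10 gave 145, 161 and 117 CPM, and M90 gave 50.1, 41.0 and 42.9 CPM. The 3 M10 libraries lay above all others, the H90 and M90 libraries lay below all vehicle libraries, and H10 overlapped vehicle. Against vehicle, edgeR's quasi-likelihood test gave log2 1.198 (SE 0.135, adjusted p = 1.75e-06) for M10, higher in 3 of 3 libraries. The fall was -0.52 (SE 0.142, adjusted p = 0.0178) in H90 and -0.47 (SE 0.140, adjusted p = 0.0112) in M90, again in 3 of 3 libraries. H10 did not pass (0.18, 95% interval -0.11 to 0.48, adjusted p = 0.307). The H90 and M90 calls are the least firm of these: with library set as a term adjusted p was 0.189 and 0.227. H90 a, the H90 library of set 1 and the one with high Rn45s, differed from the vehicle libraries by -0.51, a value that rests on 1 library. Without vehicle b, H90 a or H90 c the H90 call also ended, at adjusted p = 0.0541, 0.0528 and 0.0760.

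**Figure D1:**
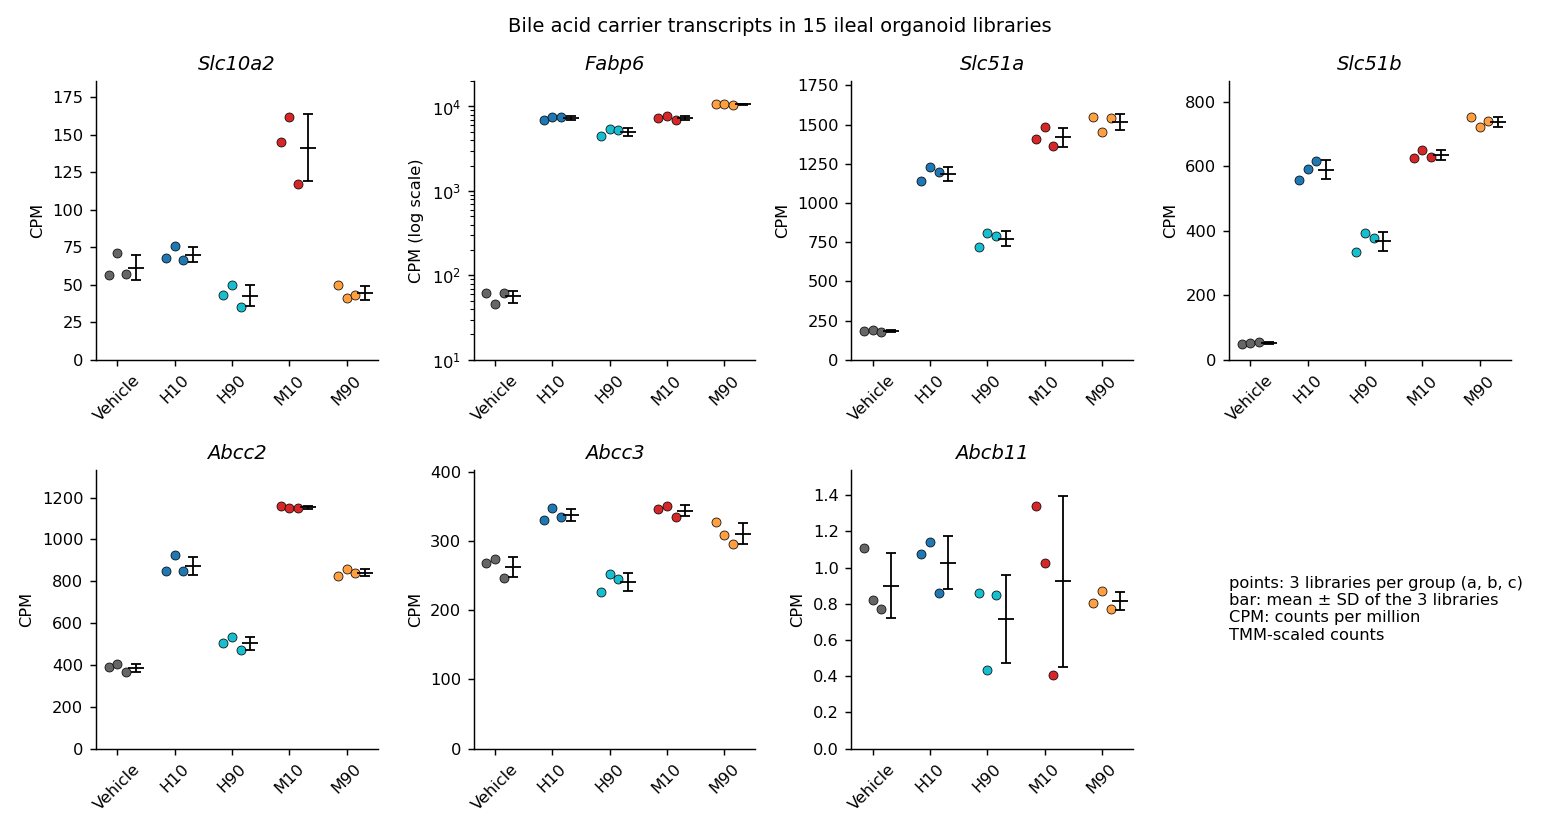
Level of each gene in CPM (TMM-scaled, log axis for Fabp6 only) in the 5 groups; points are libraries and bars are mean ± SD of 3. Slc10a2 is highest in M10 (117 to 161 CPM), while Fabp6 lies at 46.1 to 62.4 CPM in vehicle and 4463 to 10703 CPM in the pools.

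The cytosolic binding protein Fabp6 (chromosome 11, 43596049 to 43601540, minus strand, 4 exons) rose in every pool, more than the other members. Vehicle gave 61.7, 46.1 and 62.4 CPM. H10 gave 6899, 7502 and 7605 CPM, and H90 gave 4463, 5390 and 5199 CPM. M10 gave 7348, 7632 and 6970 CPM, and M90 gave 10703, 10612 and 10457 CPM. All 12 pool libraries lay far above all vehicle libraries, with M90 above and H90 below the overlapping H10 and M10. The change from vehicle was log2 7.02 in H10 (130.05-fold) and 6.47 in H90. In the mouse-like pools it was 7.02 for M10 and 7.55 for M90 (188-fold), with SEs of 0.129 to 0.134 and adjusted p of 8.51e-12 or less by edgeR. The SD between replicates was 124 to 489 CPM in the pools, small beside these changes.

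The subunits of the basolateral carrier rose together. Slc51a (chromosome 16, 32474504 to 32487879, minus strand) gave 184, 189 and 180 CPM in vehicle, 1140, 1228 and 1196 in H10, and 720, 806 and 792 in H90. In M10 it gave 1407, 1484 and 1363 CPM and in M90 1546, 1455 and 1540 CPM, so those ranges overlap each other and lie above H10 and H90. Slc51b (chromosome 9, 65412714 to 65422955, minus strand), the smaller subunit needed for the carrier to reach the membrane, gave 50.0, 53.7 and 54.7 CPM in vehicle, 559, 592 and 618 in H10, and 335, 393 and 377 in H90. In M10 it gave 625, 652 and 630 CPM and in M90 752, 721 and 740 CPM. For both subunits no pool library overlapped vehicle and H90 was the lowest pool. The edgeR changes for Slc51a were log2 2.69, 2.07, 2.94 and 3.04 in H10, H90, M10 and M90, and those for Slc51b were 3.48, 2.80, 3.59 and 3.80, with SEs of 0.0469 to 0.0561. Slc51a shares 567 exon bases with Pcyt1a on the other strand and Slc51b shares 91 with Rasl12. The strand setting of the counting was not given in the sources used here, so reads from those stretches cannot be told apart.

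The apical conjugate exporter Abcc2 (chromosome 19, 43782192 to 43840740, plus strand) rose in every pool, least in H90. It gave 391, 403 and 364 CPM in vehicle, 847, 924 and 847 in H10, 504, 533 and 470 in H90, 1159, 1149 and 1150 in M10, and 823, 856 and 841 in M90. No pool library overlapped vehicle, and M10 stood above the other pools. The changes were log2 1.18, 0.38, 1.58 and 1.12 in that order (SEs 0.0462 to 0.0468, adjusted p of 4.36e-08 or less by edgeR). The basolateral exporter Abcc3 (chromosome 11, 94343295 to 94392997, minus strand) rose in H10, M10 and M90, with smaller estimates than Abcc2 in each. It gave 267, 274 and 246 CPM in vehicle, 330, 348 and 335 in H10, 225, 252 and 244 in H90, 346, 350 and 335 in M10, and 326, 308 and 296 in M90. H10, M10 and M90 lay above vehicle and H90 overlapped it. The changes were 0.36 in H10, 0.39 in M10 and 0.24 in M90 (adjusted p = 9.78e-08, 1.14e-08 and 8.30e-05 by edgeR). H90 did not pass (-0.13, adjusted p = 0.0652). With library set as a term it did, as a fall (-0.22, adjusted p = 0.0382), but within a set that comparison rests on H90 a alone, which gave -0.21. The H90 fall was also called by edgeR with library size only (-0.16, adjusted p = 0.0116), upper-quartile scaling (-0.14, 0.0441) and a replicate block (-0.13, 0.0476). It was called without vehicle c (-0.17, adjusted p = 0.0149) or H90 b (-0.16, 0.0356) as well. The M90 call of Abcc3 ended with library set as a term (adjusted p = 0.399) and with scaling by library size alone (0.111). That scaling moves the median log2 change of all genes in M90 by -0.15.

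Abcb11 (chromosome 2, 69238282 to 69342616, minus strand), the hepatocyte pump, was close to the limit of detection with 8 to 35 counts per library. Vehicle gave 1.11, 0.820 and 0.774 CPM and the pools gave 0.407 to 1.34 CPM. The groups overlapped except H90 and H10, whose highest and lowest libraries were at 0.861 and 0.863 CPM, and edgeR called it in 0 of 12 comparisons (0 also at an unadjusted p under 0.05, and 0 by limma-voom and by DESeq2). The 95% interval against vehicle ran from -0.99 to 1.38 log2 in H10 and from -1.33 to 1.06 in M90, so changes within those ranges are not excluded. Alb, a hepatocyte transcript, was at 93.5 to 137 CPM in set 1 and 32.5 to 65.7 in set 2, while Abcb11 was at 0.774 to 1.14 and 0.407 to 1.34 CPM. Its promoter held the closest IR-1 match of the 6 above.

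**Figure D2:**
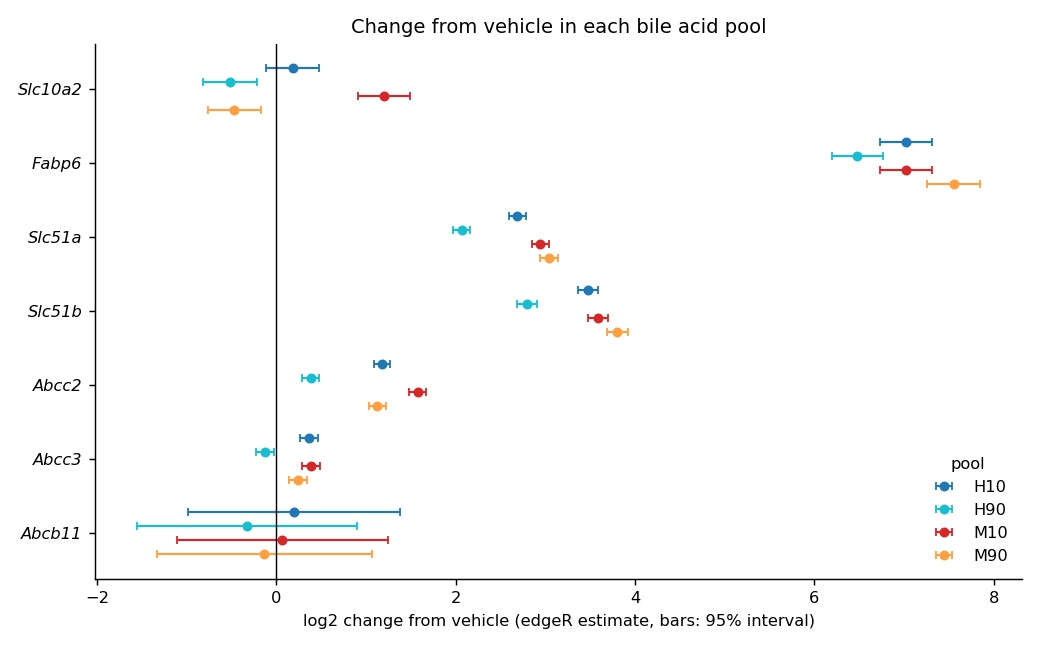
Log2 change from vehicle (edgeR estimate, bars: 95% interval, 3 libraries a group) for each gene and pool. Fabp6 lies between 6.47 and 7.55, the Slc51 subunits between 2.07 and 3.80, and Slc10a2 lies on both sides of 0.

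Counted over the members, 5 of 7 rose and 0 fell in H10, where 24.0% of all tested genes rose and 24.5% fell. In H90 4 rose and 1 fell, against 11.7% and 9.86% of all tested genes. In M10 6 rose and 0 fell (all genes 31.2% and 33.3%), and in M90 5 rose and 1 fell (all genes 26.2% and 28.5%). On the mean of the 4 pools 5 rose and 0 fell, against 27.7% and 30.3%. The median change over the members was log2 1.18, 0.38, 1.58 and 1.12 in H10, H90, M10 and M90, against -0.0040, -0.0089, -0.028 and -0.022 over all tested genes. These comparisons share the vehicle libraries. As these are bulk samples, fewer cells of a type and less RNA per cell cannot be told apart. Transcripts of cell type markers differed between the groups. Summed CPM of 6 proliferation markers was 881 to 910 in vehicle, 134 to 150 in H10 and 544 to 651 in H90. It was 27.9 to 34.3 in M10 and 132 to 148 in M90. Summed CPM of 12 enterocyte markers was 15998 to 18207, 19286 to 20079, 14522 to 15215, 29735 to 30702 and 19966 to 21108 in the same order. Their part in the members' changes was not tested.

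Raising the 12α-hydroxylated share from 10% to 90% lowered the members in the human-like pools. In H90 against H10, 6 of 7 fell and 0 rose, where 18.4% of all tested genes fell and 18.2% rose. The falls were log2 -0.55 (SE 0.0993, adjusted p = 0.00107 by edgeR) for Fabp6, -0.62 for Slc51a, -0.68 for Slc51b, -0.70 for Slc10a2, -0.80 for Abcc2 and -0.49 for Abcc3. Within library set 1 the values were -0.58 to -0.81, but H90 a is there the only H90 library and has high Rn45s, so they have no replicate check. Without H90 a, the same 6 were called, at -0.44 to -0.80. H90 b and c lie in set 2 and H10 in set 1, so share and set cannot be told apart there. All 12 enterocyte markers were also lower in H90 than in H10 (median -0.53) and all 6 proliferation markers higher (median 1.92), and their part was not tested.

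In the mouse-like pools the same step split the members. In M90 against M10, 2 members rose and 3 fell, where 21.3% of all tested genes rose and 20.0% fell. Both groups lie in set 2. Fabp6 rose by 0.53 (SE 0.0992, adjusted p = 0.00113 by edgeR) and Slc51b by 0.21 (adjusted p = 0.000425), while Slc51a did not pass (0.094, 95% interval 0.0041 to 0.18, adjusted p = 0.0877). The Slc51a call depended on the processing. By edgeR it rose with upper-quartile scaling (0.18, adjusted p = 0.000865), library size only (0.21, 0.000118) and without M10 b (0.13, 0.0382). By limma-voom it rose too (0.092, adjusted p = 0.0328). Slc10a2 changed by -1.67 (SE 0.139, adjusted p = 1.66e-07), that is, it was 3.17-fold lower in M90, in 3 of 3 libraries. Abcc2 changed by -0.46 (adjusted p = 1.73e-10) and Abcc3 by -0.15 (adjusted p = 0.0150), the latter no longer called under upper-quartile scaling (adjusted p = 0.307), library size only (0.586), or without M10 b, M90 b or M90 c (0.0593, 0.0526 and 0.109). Of the enterocyte markers 11 of 12 fell and 0 rose in M90 (median -0.62). All 6 proliferation markers rose (median 2.11). The part of these markers in the members' changes was not tested.

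The difference between those steps was itself tested as an interaction, (M90 minus M10) minus (H90 minus H10). Of the members 5 were higher and 1 lower, where 7.85% of all tested genes were higher and 6.92% lower. Fabp6 gave 1.08 (SE 0.140, adjusted p = 0.000346 by edgeR). Slc51b gave 0.89 (SE 0.0690) and Slc51a 0.71 (SE 0.0628), with adjusted p of 7.99e-12 and 1.01e-10. Slc10a2 was the member on the other side of 0, at -0.97 (SE 0.197, adjusted p = 0.00405). Abcc2 and Abcc3 both gave 0.34 (adjusted p = 0.000226 and 0.000559). Each of these 6 kept its direction and its call in 11 alternative settings and without each single library. In the setting with library set as a term, the human-like step rests on H90 a alone. Without H90 a, that step runs between the library sets. Over the 12 enterocyte markers the interaction gave 3 higher and 4 lower with a median of -0.044. Over the 6 proliferation markers it gave 3 higher and 1 lower with a median of 0.23. The part of these markers was not tested.

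**Figure D3:**
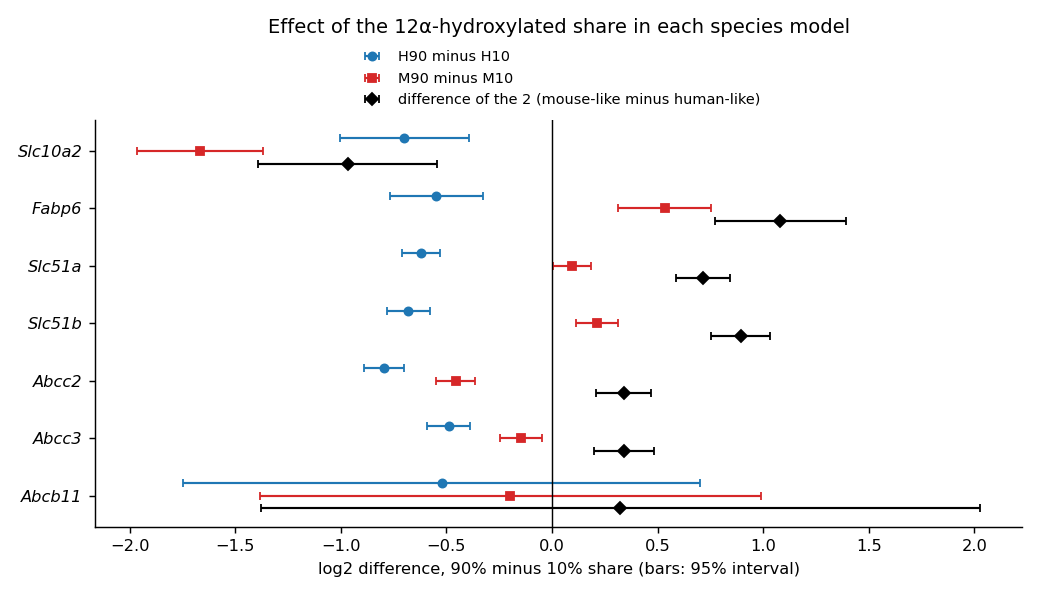
Log2 difference between pools with 90% and 10% 12α-hydroxylated bile acids in the human-like (blue) and mouse-like (red) models, and the difference of these (black), with 95% intervals from edgeR. For Fabp6 and Slc51b blue lies below 0 and red above, and for Slc10a2 both lie below 0, with red further (-1.67 against -0.70).

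Between species models at a fixed share, M10 against H10 called 3 members higher and 0 lower, where 18.2% and 18.1% of all tested genes were. Slc10a2 was higher by 1.02 (adjusted p = 3.05e-05 by edgeR), Abcc2 by 0.40 (adjusted p = 4.62e-09) and Slc51a by 0.26 (adjusted p = 1.39e-05), while Fabp6 did not pass (-0.0037, 95% interval -0.22 to 0.22). M10 lies in set 2 and H10 in set 1. A term for the set ended the Slc51a call (adjusted p = 0.369), and Slc10a2 and Abcc2 were called with it (0.0223 and 0.000541). M90 against H90 called 5 higher and 0 lower, against 19.2% and 19.5%: Fabp6 by 1.08, Slc51b by 1.003, Slc51a by 0.97, Abcc2 by 0.74 and Abcc3 by 0.37. Within set 2, with H90 b and c, these were 1.01, 0.94, 0.93, 0.75 and 0.33, all called again. Slc10a2 did not pass there (0.050, 95% interval -0.26 to 0.36). Across both factors, M10 against H90 called 6 higher and 0 lower, against 28.3% and 30.3%. M90 against H10 called 3 higher and 1 lower, against 7.46% and 7.55%, but 0 of those 4 with library set as a term. In the first 3 of these 4 comparisons the enterocyte list was higher, as the called members were, and the proliferation list was lower. Of 12 enterocyte markers, 10 were higher and 0 lower in M10 against H10 (median 0.55), 11 and 0 in M90 against H90 (0.57), and 12 and 0 in M10 against H90 (1.16). All 6 proliferation markers were lower in those 3 comparisons, with medians of -2.16, -1.96 and -4.05. In M90 against H10 4 enterocyte markers were higher and 2 lower, and 0 of the 6 proliferation markers were called. Their part in the members' differences was not tested.

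The order of the groups differed by member. Slc10a2 ran from H90 and M90, which were not called apart, through vehicle and H10, which were not called apart, to M10. Fabp6 ran from vehicle through H90, then M10 and H10, which were not called apart (adjusted p = 0.981 by edgeR), to M90. Slc51a ran from vehicle through H90 and H10 to M10 and M90, which were not called apart (adjusted p = 0.0877). Slc51b had that order too, with H10 and M10 not passing (adjusted p = 0.0784) although their ranges did not overlap. Abcc2 ran from vehicle through H90, then M90 and H10, which were not called apart, to M10. Abcc3 had H90 and vehicle lowest, not called apart, and M90, H10 and M10 above them, where neighbours were not called apart. Some called steps run between library sets and were not called by edgeR with set as a term. For Slc51a this was H10 to M10 (adjusted p = 0.369) and for Fabp6 H10 to M90 (0.457). For Slc10a2 it was M90 to vehicle (0.227) and for Abcc3 vehicle to M90 (0.399).

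Levels of different genes are comparable only per length, here as CPM per kilobase of merged exons. In vehicle Fabp6 was at 118 ± 19.3 CPM per kb (SD, n = 3), rank 391 of 21777 genes with a length. In H10, H90, M10 and M90 it was at 15314, 10475, 15274 and 22110 CPM per kb and ranked 1 in each pool, where the next gene was at 2878, 2888, 5119 and 5544. The Slc51b transcript was at 74.5 CPM per kb in vehicle and 1041 in M90, and Slc51a at 57.7 and 473. Abcc2 and Abcc3 were alike in vehicle, at 45.2 ± 2.34 and 46.1 ± 2.53 CPM per kb, and in M10 were at 135 and 60.3. Slc10a2 stood lowest of the 6 expressed members, at 10.3 to 34.0 CPM per kb, and Abcb11 at 0.139 to 0.200.

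**Figure D4:**
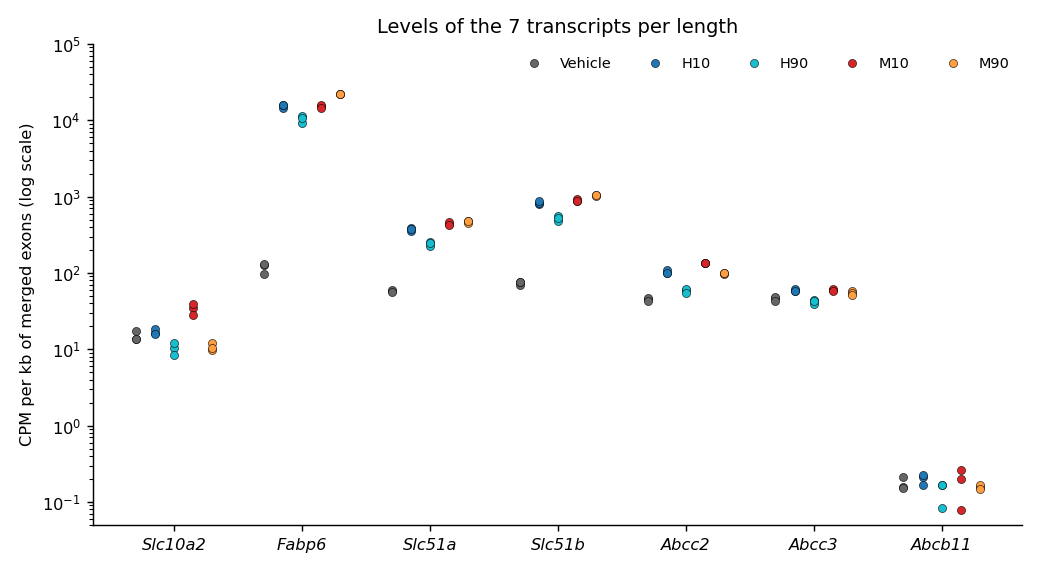
CPM per kilobase of merged exons (log axis) for each gene; points are libraries, coloured by group. Fabp6 lies near 118 CPM per kb in vehicle and at 10475 to 22110 (group means) in the pools, and Abcb11 has group means of 0.139 to 0.200.

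Ratios of members within a library do not depend on scaling between libraries. The count ratio of Slc51b to Slc51a was 0.286 in vehicle (geometric mean, n = 3) and 0.496, 0.476, 0.449 and 0.488 in H10, H90, M10 and M90. The subunits changed unequally against vehicle. Pools minus vehicle was log2 0.74, with exact two-sided permutation p = 0.0022 (adjusted over 4 ratios 0.0022), the smallest that 455 splits allow. The ratio did not pass between shares (0.031, exact permutation p = 0.425), a value that averages -0.059 in the human-like and 0.12 in the mouse-like pools. Fabp6 to Slc51a went from 0.305 to between 5.16 and 6.999, and its difference between shares was 0.070 in the human-like and 0.44 in the mouse-like pools, and pooled it was 0.25 (exact permutation p = 0.01, adjusted 0.02). Whether these ratios' share effects differ between the models was not tested. Uptake carrier to exporter, as Slc10a2 to Slc51b, went from 1.16 in vehicle to 0.119, 0.115, 0.220 and 0.0603. Its share effect was -0.041 in the human-like and -1.87 in the mouse-like pools, and pooled it was -0.96 (exact permutation p = 0.045, adjusted 0.06). Abcc2 to Abcc3 went from 1.47 to 2.58, 2.09, 3.35 and 2.71, with a share effect of -0.31 in each model (exact permutation p = 0.005, adjusted 0.02). All 4 ratios gave the same exact permutation p of 0.0022 for pools against vehicle.

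**Figure D5:**
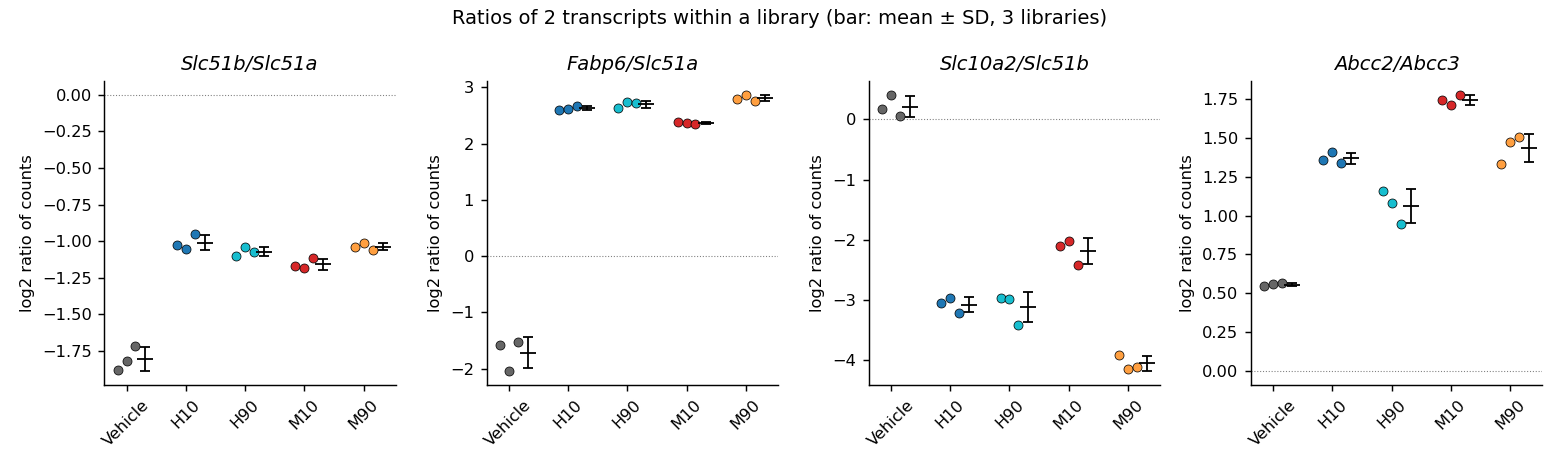
Log2 ratio of counts of 2 members in each library, by group; points are libraries and bars are mean ± SD of 3. Slc51b/Slc51a moves from -1.80 in vehicle to between -1.16 and -1.01 in the pools, and Slc10a2/Slc51b is lowest in M90 (-4.05).

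Across the 15 libraries, log2 CPM of Slc51a and Slc51b had a Pearson r of 0.997, Fabp6 and Slc51b 0.990, and Slc10a2 and Fabp6 0.0664. These describe libraries that share groups and depth. Among 10547 other genes the closest to Slc51a were Akr1b7, Trpm6 and Fgf15 (r 0.995, 0.995 and 0.993), and those closest to Slc51b were Fgf15, Akr1b7 and Abhd3 (0.993, 0.991 and 0.991). For Fabp6 they were Gcg, Abhd3 and Tmem86a (0.988, 0.984 and 0.982). Gcg encodes proglucagon, an enteroendocrine hormone precursor. Summed CPM of 6 enteroendocrine markers, a list that holds Gcg itself, was 908 to 1126 in vehicle and 1747 to 2256 in the 12 pool libraries. Gcg alone had group means of 502 CPM in vehicle and 982 to 1218 in the pools, so the sum is not separate from it. The part of these markers was not tested. Slc10a2 was closest to Klf3, Ptpn12 and Pmp22 (0.984, 0.978 and 0.976). Abcc2 was closest to Zyx, Lasp1 and Ank3 (0.992 each) and Abcc3 to Gng12, Dip2a and Zfp36l1 (0.963, 0.953 and 0.950). Abcb11 reached only 0.778, with Flywch1.

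Of 23 genes that regulate the members or respond with them, 13 rose and 5 fell when the pools were averaged, where 27.7% of all tested genes rose and 30.3% fell (median log2 0.19, against -0.014 over all tested genes). Fgf15, the ileal hormone that restrains hepatic bile acid synthesis, went from 16.8 ± 2.22 CPM in vehicle to 973, 378, 1375 and 1012 in H10, H90, M10 and M90. Nr0b2, the repressor SHP, went from 0.285 ± 0.326 to 11.6, 6.34, 14.7 and 23.7 CPM. Like Slc51b, Fgf15 was lower in H90 than in H10 (-1.37, adjusted p = 2.75e-11 by edgeR). In the mouse-like pools they parted: the Fgf15 mean was lower in M90 than in M10, whereas Slc51b was higher in M90 (0.21). Cdx1, an intestinal homeobox factor, fell (-0.76) as did Nr5a2, LRH-1 (-0.65), and the receptors Nr1i2 (PXR) and Ppara rose by 0.80 and 0.75. The immediate early factors Jun and Fos were lower in M90 than in M10, by -0.74 and -1.59.

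Of 20 tested genes among 23 other bile acid and sterol carriers, 11 rose and 2 fell on that average (median 0.26), against 27.7% and 30.3% of all tested genes. The exporters Abcb1a and Abcg2 rose by 0.83 and 0.73, the scaffold proteins Pdzk1 and Slc9a3r1 by 1.33 and 0.67, and the sterol exporter subunit Abcg5 by 0.43. Slco2b1, an organic anion importer, fell by 1.41 on the log2 scale, from 99.8 ± 1.95 CPM in vehicle to 16.5 ± 4.80 in M10. Of 20 tested genes of bile acid conjugation and metabolism among 21, 10 rose and 2 fell (median 0.15), against the same shares of all tested genes. The oxidases Cyp3a11 and Cyp3a13 rose by 1.81 and 1.16 and were highest in M10, at 1995 ± 202 and 1947 ± 16.3 CPM. Slc27a2, a fatty acyl and bile acid CoA ligase, rose by 1.03.

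Of 4 tested among 8 other fatty acid binding proteins, 3 rose and 1 fell on the average of the pools (median 2.03), against 27.7% and 30.3% of all tested genes. Fabp1 rose by 3.68, from 135 ± 14.3 CPM to 3066 ± 455 in M90, and Fabp2 by 2.37. The retinol binding protein Rbp2 rose by 1.68, and Fabp5 fell (-0.65). In M90 against M10 Fabp1 rose (0.97, adjusted p = 9.18e-05 by edgeR), as Fabp6 did, while Rbp2 fell (-0.90).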

How the data were processed

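Poly-A RNA (RNA integrity number above 8) was made into TruSeq libraries, per the labels' protocols. Tools named in the submitters' processing notes are STAR 2.5.2b, featureCounts 1.5.0-p3 and bcl2fastq 2.17, on mm10 (GRCm38). The files the authors deposited hold raw counts per gene symbol; annotation, strand setting and multimapping were not given in the sources used here.

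Counts of 13159 genes kept by filterByExpr were scaled by TMM and tested with edgeR 4.0.16 (R 4.3.3; robust quasi-likelihood F test, two-sided) fitted to all 5 groups at once, which left 10 residual degrees of freedom. A call was a p under 0.05 after Benjamini-Hochberg adjustment over every tested gene of the contrast; 12 contrasts were made. Total counts of 11245807 to 28989526 and a biological coefficient of variation of 0.0881 set the precision. Ratios of members, with 0.5 added to counts, had exact permutation tests. Merged exon lengths came from GENCODE vM21 (21777 symbols) and promoters from RefSeq. Marker sums use plain totals. Alternatives were scaling by RLE, by upper quartile or by library size alone, other filters, limma-voom 3.58.1, DESeq2 1.42.0, a replicate block, library set as a term and leaving out each library; fits within 1 set were added after seeing the data. The scripts were tested on simulated data for H10 against vehicle, with the same dispersion for every gene. There edgeR recovered 69% of 1.5-fold and 96% of 4-fold changes, and 7.30% of its calls were false.

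The members and the gene lists were chosen with earlier results of these data known. Named are the 7 members, up to 6 genes of each of 4 pathway lists (75 genes) with the smallest adjusted p on the mean of the pools and up to 3 in each comparison between pools, and the 3 genes closest to each member by Pearson r of log2 CPM (mean of at least 2 CPM). A motif other than IR-1 is not reported here.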

Additional observations from a re-analysis of the deposited data

Results flagged for a closer look

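The effect of the 12α-hydroxylated share differed between the mouse-like and human-like pools for 6 of the 7 members, by the edgeR interaction test with 3 libraries a group. As log2 differences (mouse-like minus human-like), Fabp6 gave 1.08 (all 3 H90 libraries below the H10 libraries, all 3 M90 libraries above the M10 libraries), Slc51b gave 0.89 and Slc51a 0.71. Slc10a2 gave -0.97, with a fall in both models that was larger in the mouse-like one. Abcc2 and Abcc3 each gave 0.34, with smaller falls in the mouse-like pools. Of all tested genes 7.85% were called higher and 6.92% lower in this interaction. M10 and M90 lie in library set 2 and H10 in set 1. With set as a term the human-like step rests on H90 a alone, the library with high Rn45s, so it has no replicate check. The values were then 1.25, 1.03, 0.82, -0.96, 0.33 and 0.43 for Fabp6, Slc51b, Slc51a, Slc10a2, Abcc2 and Abcc3. Set and pool cannot be told apart beyond what the H90 libraries, in both sets, allow.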

How the results depend on the processing

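Across 84 values of the 7 members in 12 comparisons, 84 kept direction and call with a filter of at least 1 CPM in 3 libraries and with non-robust shrinkage, 83 with DESeq2 and without a filter, 82 with RLE scaling and with limma-voom, 79 with upper-quartile scaling, 73 with library size only and 68 with library set as a term. With library set as a term the members called in M90 minus H10 went from 4 to 0. The cause was not tested. Any pairing by replicate letter was weak. Residual profiles of libraries with a shared letter correlated at -0.0237 to 0.0829 (30 pairs, 0 over 0.1), with a median of 0.00499. The median was -0.00305 over the 60 pairs with different letters. The best correlation was with the own letter in 11 of 15 libraries. Whether a letter marks a shared animal or culture was not tested. With the replicate block as a pairing, 82 of 84 values kept their call, and Abcc3 in H90 minus vehicle (-0.13, adjusted p = 0.0476 by edgeR) and Slc51b in M10 minus H10 (0.11, adjusted p = 0.0470) were gained, so that members called went from 5 to 6 and from 3 to 4.

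Signs turned for these values, none of which was called. With library size only these were Slc10a2 on the mean of the pools (-0.046) and in M90 minus H90 (-0.065), and in M10 minus H10 Slc51b (-0.025) and Abcc3 (-0.11). With library set as a term they were, in M10 minus H10, Slc51b (-0.091), Abcc3 (-0.11) and Abcb11 (0.34), and for Abcb11 also M90 minus vehicle (0.34), the mean of the pools (0.25) and M90 minus H10 (0.14). Fabp6 in M10 minus H10 was 0.0091 with RLE scaling and with DESeq2, and Abcc3 there was -0.045 with upper-quartile scaling. Abcb11 in M10 minus vehicle was -0.069 with upper-quartile scaling and -0.20 with library size only. Leaving out 1 library gave -0.047 to 0.029 for Fabp6 in M10 minus H10 and -0.053 to 0.17 for Slc10a2 in M90 minus H90. For Abcb11 it gave -0.30 to 0.40 in M10 minus vehicle, -0.23 to 0.034 in M90 minus vehicle, -0.15 to 0.11 on the mean of the pools, -0.54 to 0.17 in M90 minus M10, -0.50 to 0.21 in M10 minus H10, -0.068 to 0.39 in M90 minus H90 and -0.012 to 0.69 in the interaction.

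The share effect on Slc10a2 to Slc51b was -1.02 to -0.88 without each library, and by the exact permutation test it passed without H90 a (adjusted p = 0.04) or H90 b (0.0467). Slc10a2 in H10 minus vehicle was called without a filter (adjusted p = 0.0439 by edgeR), with only the compared groups (0.0405) and within set 1 (0.0351). Abcc3 on the mean of the pools was lost with library size only (0.111) and with set as a term (0.103). At 8 to 35 counts, Abcb11 is limited by depth.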
